A study of Mus musculus with 9 samples.

Results

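The genes described here are 10 genes of lipid transport and storage in mouse spinal cord, taken by symbol from the deposited expression table. They are the Apoe and Apoc1, Apoc2 and Apoc4 genes of one apolipoprotein cluster on chromosome 7, the cholesterol exporters Abca1 and Abcg1, the sterol-sensing receptor gene Nr1h3, the lipid droplet genes Plin2 and Soat1, and the oxysterol enzyme gene Ch25h. The table lists 34745 genes, of which 16494 were tested, and all 10 genes were among those tested. Apoc2 and Apoc4 had no counts at day 0 and so passed the filter on low counts through the later groups alone.

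RNA was sequenced from the spinal cord of mice with a complete transection at vertebral level T9. The day 0, day 3 and day 21 groups held 3 libraries each, and the libraries with an unexplained N in their titles were taken as day 0, since the design names days 0, 3 and 21. No sham-operated group is among them, and the sources used here give no strain, sex, age or length of cord. Nothing in the labels ties each library to its own animal, so p-values measure only how far these samples vary, and that variation may be technical.

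Apolipoproteins give lipid particles their solubility and their receptor binding. Cells rid themselves of cholesterol by passing it through membrane transporters of the ABC family to apolipoproteins outside the cell, or store it as esters in lipid droplets. Liver X receptors are nuclear receptors that bind oxysterols and switch on genes of this efflux route. In the nervous system, astrocytes are the usual source of apolipoprotein E, and phagocytes that take up myelin debris after injury handle large amounts of cholesterol.

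The promoter sequences of 8 of the 10 genes were found in RefSeq on build GRCm38.p6, as 11 windows, and the 250 bases before each start were searched. Apoc1 and Abcg1 are without a sequence. Liver X receptors bind, as dimers with RXR, to repeats of AGGTCA with 4 bases between them, called DR4, and PPAR receptors to the same repeats with 1 base between them, called DR1. DR4 was searched with up to 3 mismatches in the repeats and DR1 with up to 2. The AP-1 motif TGANTCA, the PU.1 core GAGGAA and the TATA motif TATAAA were searched without a mismatch. Both strands were read, and a motif may overlap another. Over all 32851 RefSeq windows of this length, 18.5% held DR4, 3.24% DR1, 6.75% AP-1, 23.3% the PU.1 core and 12.4% the TATA motif. The sequences below are shown because they belong to the gene with the highest level of the group (Apoe, the first of its 3 windows), to the transporter that changed (Abca1), and to the only genes among the 8 with a DR1 match (Apoc2 and Plin2). All 4 lie on the minus strand and are written 5′ to 3′, with matches in capitals.
Apoe, chr7:19699189-19699438: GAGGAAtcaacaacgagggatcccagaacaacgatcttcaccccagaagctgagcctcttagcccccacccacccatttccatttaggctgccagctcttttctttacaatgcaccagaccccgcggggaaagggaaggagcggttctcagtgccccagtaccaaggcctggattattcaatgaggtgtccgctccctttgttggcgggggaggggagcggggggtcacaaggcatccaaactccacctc
Abca1, chr4:53159896-53160145: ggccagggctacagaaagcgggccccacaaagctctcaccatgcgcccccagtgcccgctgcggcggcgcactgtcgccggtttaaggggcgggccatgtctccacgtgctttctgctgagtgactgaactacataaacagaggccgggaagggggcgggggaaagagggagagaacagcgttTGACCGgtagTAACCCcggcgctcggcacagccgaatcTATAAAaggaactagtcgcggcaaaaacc
Apoc2, chr7:19677942-19678191: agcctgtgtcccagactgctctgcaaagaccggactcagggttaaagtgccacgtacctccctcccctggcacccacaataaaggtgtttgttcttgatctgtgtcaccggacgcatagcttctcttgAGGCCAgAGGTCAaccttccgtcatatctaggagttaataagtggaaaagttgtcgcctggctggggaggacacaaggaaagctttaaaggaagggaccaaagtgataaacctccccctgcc
Plin2, chr4:86670060-86670309: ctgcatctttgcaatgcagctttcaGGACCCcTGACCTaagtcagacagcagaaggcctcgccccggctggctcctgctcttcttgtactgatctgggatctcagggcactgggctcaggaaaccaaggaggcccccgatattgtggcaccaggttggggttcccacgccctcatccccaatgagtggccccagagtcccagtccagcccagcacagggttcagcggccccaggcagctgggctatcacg
In the Abca1 window the DR4 match, with 3 mismatches and in reverse orientation, began 67 bases before the start, and a TATA motif began 29 bases before it. The DR1 match of Apoc2 had 1 mismatch and lay 122 bases before its RefSeq start. That window lies inside the deposited Apoc2 locus, chr7:19671579-19681423 on the minus strand, and overlaps the Apoc4 locus. Its start is therefore not the start of the locus whose counts are reported. The DR1 match of Plin2 had 2 mismatches and lay 225 bases before the Plin2 start. The Apoe window held a PU.1 core at its first base. Ch25h held a TATA motif 151 bases before its start, and the windows of Apoc4, Nr1h3 and Soat1 held none of the 5 motifs. The Nr1h3 windows, too, lie inside its deposited locus. These are letter matches in the sequence, and no binding was measured.

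Total gene counts ranged from 14299679 to 24022923 per library. Sample weights estimated with limma were 0.0583 for day 21 replicate 2 and 0.354 for day 0 replicate 1, against 1.02 to 2.03 for the other libraries, so day 21 replicate 2 stood apart. It also stood apart in these genes: its FPKM was 3.32 times the mean of the other day 21 libraries for Apoc1, 2.63 times for Apoc2, 3.62 times for Apoc4 and 1.51 times for Apoe, and 0.504 times for Abca1. Results that rest on it are given with and without it. Levels below are FPKM, the deposited counts scaled to gene length and to the library's total, and fold changes are from edgeR on the counts.

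At day 3, 8 of the 10 genes were higher than at day 0 and none was lower, with a median log2 fold change of 2.20. Over all genes tested, 24.8% were called higher and 19.5% lower, with a median of 0.0081. At day 21 against day 0, 8 of the 10 were higher and none was lower, with a median of 2.15, against 17.9% called higher and 11.3% lower over all genes and a median of 0.018. Among the 8 genes with counts at day 0, 6 were higher and none lower at each later day, with medians of 1.42 and 1.61. Setting Apoc2 and Apoc4 against a floor of 3 counts at day 0 left the medians of the 10 genes at 2.20 and 2.15. Both genes stay above the middle of the 10 there, so this was fixed in advance. The comparisons of day 3 and of day 21 use the same day 0 libraries, so their calls are not independent. The direct comparison of day 21 with day 3 called 2 genes higher (Apoc1 and Apoc4) and 3 lower (Nr1h3, Plin2 and Ch25h), where 11.7% of all genes were called higher and 16.1% lower. Without day 21 replicate 2 that comparison called 3 higher and 6 lower. Over all genes its calls rose as well, from 1928 to 3941 higher and from 2657 to 4305 lower.

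**Figure D1:**
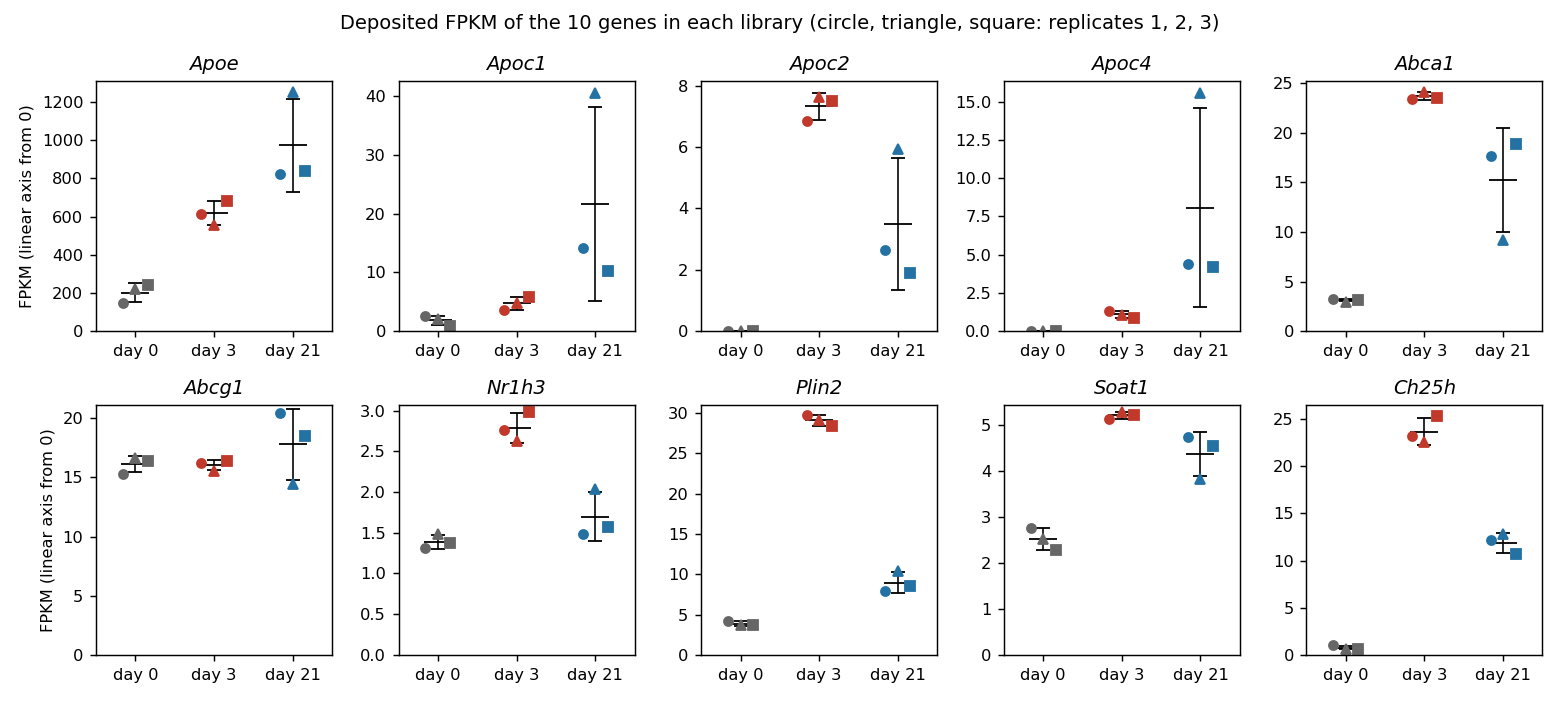
FPKM of each of the 10 genes in every library (circle, triangle and square for replicates 1, 2 and 3; the black line is the mean ± SD of 3 libraries; each panel has its own linear axis from 0). Apoc2 and Apoc4 sit at 0 in all day 0 libraries, Apoc1 and Apoc4 are highest at day 21, and Plin2, Ch25h and Nr1h3 are highest at day 3.

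Apoe encodes the main lipid-carrying protein of the nervous system. Its locus is chr7:19696109-19699166 on GRCm38, minus strand. Its FPKM was 149, 219 and 240 in day 0 replicates 1 to 3, 614, 556 and 682 at day 3, and 825, 1255 and 841 at day 21. Every day 3 library was above every day 0 library, and every day 21 library was above every day 3 library. The mean rose from 203 ± 47.7 (SD, n = 3) at day 0 to 617 ± 63.1 at day 3, 2.93-fold (log2 fold change 1.55 ± 0.22 SE, edgeR adjusted p = 0.000414). At day 21 it was 974 ± 244, 4.37-fold above day 0 (log2 fold change 2.13 ± 0.22, edgeR adjusted p = 0.000168). The difference between day 21 and day 3 did not pass (log2 fold change 0.58 ± 0.22, edgeR adjusted p = 0.0760), and without day 21 replicate 2 it was 0.38 (edgeR adjusted p = 0.178). Without day 0 replicate 1 the same difference passed at 0.61 (edgeR adjusted p = 0.0355).

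As a share of the library, Apoe took 0.0833 to 0.134% of all gene counts at day 0, 0.311 to 0.381% at day 3 and 0.462 to 0.702% at day 21. Ranked by deposited FPKM it stood between 105 and 204 among all genes at day 0, between 34 and 43 at day 3 and between 23 and 26 at day 21. These ranks rest on the gene length behind that FPKM, 5592 bases for Apoe against 2138 exon bases in GENCODE M21. Ranks among all genes on M21 length were not computed. In bulk tissue, more cells of a type and more RNA per cell cannot be told apart, and this holds for every gene here.

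Apoc1 encodes a small apolipoprotein that hinders the lipolysis and receptor uptake of lipid particles. The gene lies next to Apoe at chr7:19689484-19692658. Its FPKM was 2.51, 2.07 and 0.926 at day 0, 3.65, 4.73 and 5.80 at day 3, and 14.2, 40.6 and 10.3 at day 21. The groups did not overlap, and the widest spread was at day 21, where replicate 2 was far above the others. At day 21 Apoc1 was 10.6-fold above day 0 (log2 fold change 3.40 ± 0.56, edgeR adjusted p = 0.00205) and 4.32-fold above day 3 (2.11 ± 0.51, edgeR adjusted p = 0.0148). Without day 21 replicate 2 those log2 fold changes were 2.60 and 1.32, and both still passed (edgeR adjusted p = 0.000154 and 0.00500). The difference from day 3 no longer passed without day 3 replicate 1 or without day 3 replicate 2 (edgeR adjusted p = 0.0628 and 0.0550). At day 3 against day 0 it did not pass (1.29 ± 0.57, edgeR adjusted p = 0.0979), with a 95% interval of 0.995 to 5.99 for the fold. Without day 21 replicate 2 it passed at a log2 fold change of 1.28 ± 0.32 (edgeR adjusted p = 0.00639).

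Apoc2 encodes the cofactor that activates lipoprotein lipase. No library at day 0 held a count for it. The FPKM was 6.83, 7.64 and 7.51 at day 3, from 159, 198 and 162 counts, and 2.63, 5.94 and 1.89 at day 21, from 60, 125 and 39 counts. All day 21 libraries were below all day 3 libraries. With 3 counts over the day 0 group as a floor, Apoc2 stood 196-fold above it at day 3 (edgeR adjusted p = 7.94e-05). At day 21 it stood 88.5-fold above the floor (edgeR adjusted p = 0.000519), or 58.7-fold without day 21 replicate 2. The edgeR p-values test the fitted change and not the distance from this floor. Because Apoc2 passed the filter on low counts through the later groups alone, its p-values against day 0 are not independent of that filter. From day 3 to day 21 the log2 fold change was -1.15 ± 0.38, which did not pass (edgeR adjusted p = 0.0646). Without day 21 replicate 2 it was -1.75 and passed (edgeR adjusted p = 0.000229).

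Apoc4 encodes a minor apolipoprotein of triglyceride-rich particles. It too had no counts at day 0. Its FPKM was 1.34, 1.08 and 0.867 at day 3, from only 10, 9 and 6 counts, and 4.38, 15.6 and 4.22 at day 21, from 32, 105 and 28 counts. Every day 21 library was above every day 3 library, and replicate 2 was again the highest. Against the same floor Apoc4 was at least 9.46-fold higher at day 3 (edgeR adjusted p = 0.0193) and at least 65.2-fold higher at day 21 (edgeR adjusted p = 0.00184), or 35.6-fold without day 21 replicate 2. Its p-values against day 0 are likewise not independent of the filter on low counts. The call at day 3 was lost without day 0 replicate 1 (edgeR adjusted p = 0.0567) and in limma on log2(FPKM + 1), on log2(FPKM + 5) and on quantile normalized FPKM (adjusted p = 0.0504, 0.421 and 0.0596). From day 3 to day 21 the log2 fold change was 2.77 ± 0.62 (edgeR adjusted p = 0.0168), and it did not pass when any one day 3 library was left out (edgeR adjusted p = 0.0537 to 0.0653).

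Apoc2 had its highest level at day 3 and Apoc4 at day 21. The ratio of Apoc4 to Apoc2 FPKM was 0.196, 0.142 and 0.115 at day 3 and 1.66, 2.62 and 2.24 at day 21. The groups did not overlap, and an exact two-sided permutation test of 3 libraries against 3 gave p = 0.10, the smallest it can give (0.14 adjusted over 7 ratio tests). On GENCODE M21 exon length, a scale chosen after seeing the data, the ratio was 0.0202, 0.0146 and 0.0119 at day 3 and 0.171, 0.269 and 0.230 at day 21. So the ratio was higher at day 21 on both scales, but which gene stood higher at day 21 turned with the length used. Reads of these genes cannot be assigned with certainty. In GENCODE M21 a read-through gene, Gm44805, covers 79.5% of the exon bases of Apoc2 and 4.69% of those of Apoc4 on the same strand. Gm44805 has no row in the table, and the locus the table gives for Apoc2, chr7:19671579-19681423, contains the whole of Apoc4 at chr7:19678094-19681416. The labels do not say how counting shared reads among them.

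Apoc1 lies next to Apoe, and their ratio was read in each library. Apoc1 FPKM was 1.69, 0.944 and 0.386% of Apoe FPKM at day 0, from 37, 20 and 10 Apoc1 counts, 0.594, 0.851 and 0.850% at day 3, and 1.72, 3.24 and 1.22% at day 21. Day 21 lay above day 3 without overlap (exact permutation p = 0.10, adjusted 0.14), while day 21 overlapped day 0 (exact permutation p = 0.20, adjusted 0.23) and day 3 overlapped day 0 (exact permutation p = 0.70).

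**Figure D2:**
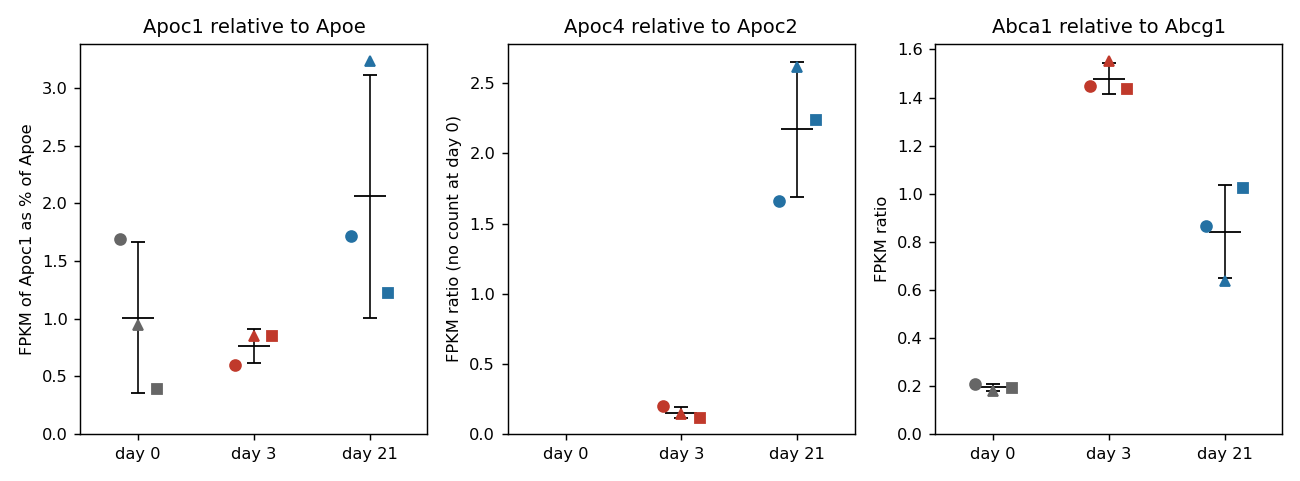
Ratios of FPKM in every library by day (circle, triangle and square for replicates 1, 2 and 3; lines are mean ± SD): Apoc1 as a percentage of Apoe, Apoc4 to Apoc2 (not defined at day 0, where both are at 0), and Abca1 to Abcg1. On the deposited lengths Apoc4 to Apoc2 is 0.115 to 0.196 at day 3 and 1.66 to 2.62 at day 21 (0.171 to 0.269 on M21 length, below 1), and Abca1 to Abcg1 is lowest at day 0 and highest at day 3.

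The table holds 10 other genes within 100 kb of Apoe, of which 7 were tested. At day 3, 3 were higher than at day 0 and none was lower, where 24.8% of all genes were called higher and 19.5% lower. Bcam, a laminin receptor of the immunoglobulin family, had a mean of 8.79 ± 0.554 FPKM at day 0 and 34.1 ± 1.21 at day 3 (log2 fold change 1.91 ± 0.10, edgeR adjusted p = 1.08e-06). Pvrl2, which encodes the adhesion protein nectin-2, went from 2.67 ± 0.176 to 10.6 ± 0.503 FPKM (1.94 ± 0.19, edgeR adjusted p = 4.31e-05). Relb, a subunit of NF-kappa-B, went from 1.15 ± 0.184 to 2.66 ± 0.113 FPKM (1.15 ± 0.17, edgeR adjusted p = 0.000472). All 3 were lower at day 21 than at day 3, with log2 fold changes of -1.29 for Bcam, -1.44 for Pvrl2 and -0.51 for Relb (edgeR adjusted p = 4.65e-05, 0.000721 and 0.0484). Of the cluster genes, Apoc1 and Apoc4 were higher, calls that were lost without some single day 3 libraries. Apoc2 (-1.15) and Apoe (0.58) did not pass (edgeR adjusted p = 0.0646 and 0.0760).

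Tomm40, the gene nearest to Apoe on its other side and a pore of the mitochondrial import machinery, had means of 11.0, 9.17 and 10.8 FPKM at days 0, 3 and 21. Neither later day passed against day 0 (edgeR adjusted p = 0.264 and 0.645). Against day 0, Bcam and Relb were still higher at day 21 (0.61 and 0.65, edgeR adjusted p = 0.00216 and 0.0191), and Pvrl2 did not pass (0.51, edgeR adjusted p = 0.0759). Clptm1 was lower at day 21 than at day 0 (log2 fold change -0.36, edgeR adjusted p = 0.0130), and Clasrp was higher (0.39, edgeR adjusted p = 0.0345). Gm26890 passed in no comparison, and Gm20512, Gm26600 and Cblc were too low to test.

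**Figure D3:**
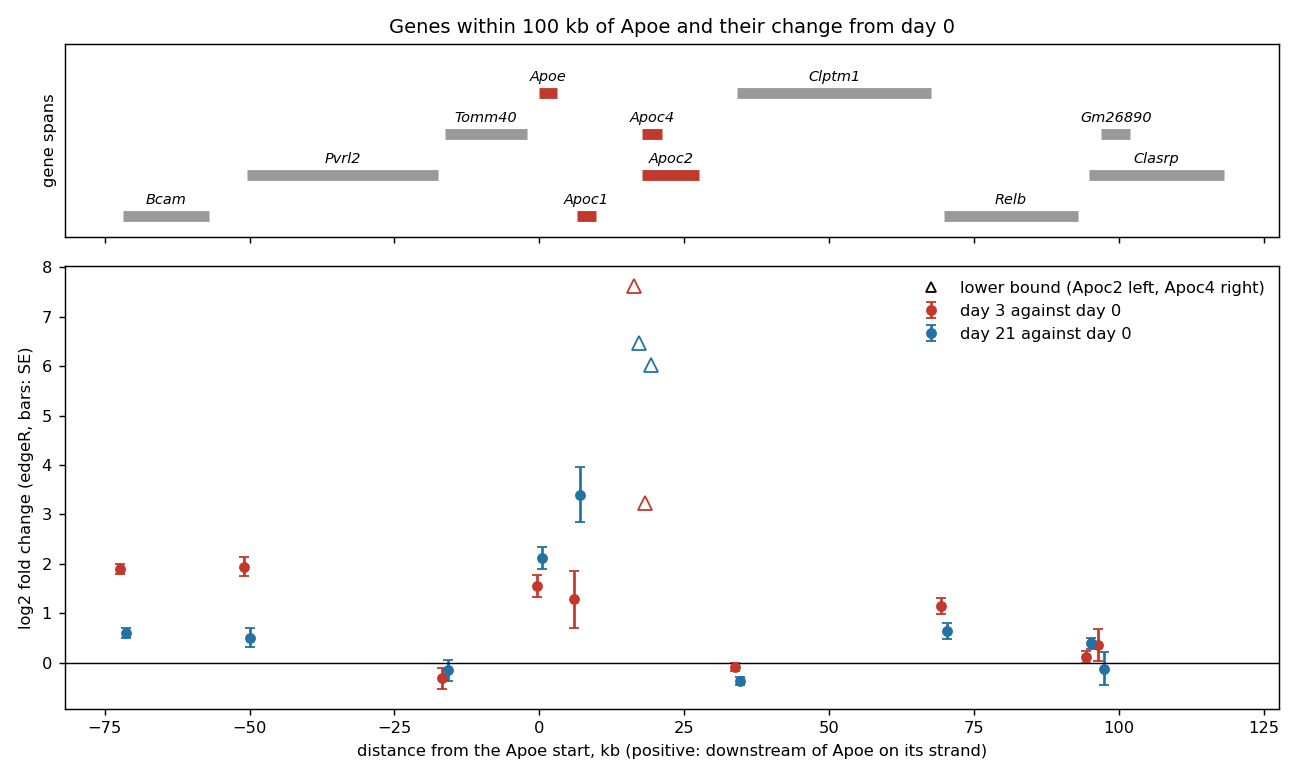
Upper panel, spans of the genes tested within 100 kb of Apoe (the 4 cluster genes in red). Lower panel, their edgeR log2 fold change with its SE against day 0, by distance in kb from the Apoe start. In the lower panel red is day 3 and blue is day 21. Open triangles (lower bounds in the key) set Apoc2 and Apoc4 against a floor of 3 counts at day 0. Bcam, Pvrl2 and Relb are higher at day 3, while Tomm40, on the side away from Apoc1, is close to 0 at both days.

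Abca1 encodes the transporter that hands cholesterol to lipid-poor apolipoproteins. Its locus is chr4:53030787-53159895, minus strand, and its promoter is the window with the DR4 match shown above. Its FPKM was 3.21, 2.99 and 3.17 at day 0, 23.4, 24.2 and 23.6 at day 3, and 17.7, 9.21 and 18.9 at day 21. The groups were well apart, and day 21 replicate 2 was the lowest library of the later groups. Abca1 rose 7.32-fold by day 3 (log2 fold change 2.87 ± 0.25, edgeR adjusted p = 2.15e-05) and was 4.50-fold above day 0 at day 21 (2.17 ± 0.25, edgeR adjusted p = 0.000272). From day 3 to day 21 the log2 fold change of -0.70 ± 0.24 missed the threshold (edgeR adjusted p = 0.0547). It passed at -0.43 without day 21 replicate 2 and at -0.89 without day 21 replicate 3 (edgeR adjusted p = 0.000253 and 0.0366).

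Abcg1 encodes the transporter that passes cholesterol to particles already loaded with lipid. Its locus is chr17:31057698-31115777, plus strand. Its FPKM was 15.3, 16.6 and 16.4 at day 0, 16.2, 15.5 and 16.4 at day 3, and 20.4, 14.5 and 18.5 at day 21. The 3 groups overlapped in every comparison. The log2 fold change was -0.06 ± 0.14 at day 3 and 0.02 ± 0.14 at day 21 against day 0 (edgeR adjusted p = 0.765 and 0.940). The 95% intervals of the fold were 0.766 to 1.20 at day 3 and 0.809 to 1.27 at day 21, both below the lower interval bounds of 4.92 and 3.05 for Abca1. The ratio of Abca1 to Abcg1 FPKM was 0.210, 0.180 and 0.193 at day 0, 1.45, 1.55 and 1.44 at day 3, and 0.866, 0.637 and 1.02 at day 21. No pair of groups overlapped in this ratio, with p = 0.10 in each exact permutation test (adjusted 0.14). On M21 exon length the ratio was 0.371, 0.318 and 0.342, then 2.56, 2.75 and 2.54, then 1.53, 1.13 and 1.81, so at day 21 Abca1 stood above Abcg1 on that scale and near or below it on the deposited one. Day 21 against day 3 did not pass for Abcg1 itself (0.08 ± 0.14, edgeR adjusted p = 0.731), but did without day 21 replicate 2 at 0.22 (edgeR adjusted p = 0.0487).

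Nr1h3 encodes liver X receptor alpha, and its locus is chr2:91184061-91202834, minus strand. Its FPKM was 1.31, 1.48 and 1.38 at day 0, 2.76, 2.63 and 2.99 at day 3, and 1.48, 2.04 and 1.57 at day 21. All day 3 libraries were above all others, and the lowest day 21 library was level with the highest of day 0 to the digits given. Nr1h3 rose 1.94-fold by day 3 (log2 fold change 0.95 ± 0.15, edgeR adjusted p = 0.000664) and fell between day 3 and day 21 (-0.79 ± 0.15, edgeR adjusted p = 0.00427). At day 21 against day 0 it did not pass (0.16 ± 0.15, edgeR adjusted p = 0.462), with a 95% interval of 0.886 to 1.41 for the fold. Abca1, a target of the receptor, was 4.50-fold above day 0 at that time.

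Plin2 encodes the coat protein of lipid droplets found in most cell types, and its transcript is a common marker of droplet-laden cells. The locus is chr4:86648386-86670060, minus strand. Its FPKM was 4.25, 3.69 and 3.67 at day 0, 29.7, 29.1 and 28.4 at day 3, and 7.93, 10.4 and 8.56 at day 21. The groups were far apart, with day 21 between the others. Plin2 rose 7.24-fold by day 3 (log2 fold change 2.86 ± 0.12, edgeR adjusted p = 2.87e-07) and then fell (-1.77 ± 0.12, edgeR adjusted p = 1.82e-05). It was still 2.12-fold above day 0 at day 21 (1.09 ± 0.12, edgeR adjusted p = 0.000172).

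Soat1 encodes the enzyme that esterifies cholesterol for storage, at chr1:156424525-156474331 on the minus strand. Its FPKM was 2.75, 2.52 and 2.29 at day 0, 5.11, 5.28 and 5.20 at day 3, and 4.72, 3.81 and 4.54 at day 21. Both later groups were above day 0 in every library. Soat1 rose 1.99-fold by day 3 (log2 fold change 0.995 ± 0.121, edgeR adjusted p = 0.000152) and was 1.59-fold above day 0 at day 21 (0.67 ± 0.12, edgeR adjusted p = 0.00324). Between day 3 and day 21 it did not pass (-0.32 ± 0.12, edgeR adjusted p = 0.0734). Without day 21 replicate 2 the value was -0.22 and passed (edgeR adjusted p = 0.0387).

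Ch25h encodes cholesterol 25-hydroxylase, which makes an oxysterol that acts on immune cells and on sterol synthesis. It is a single-exon gene at chr19:34473786-34475135, minus strand. Its FPKM was 1.02, 0.658 and 0.673 at day 0, 23.2, 22.6 and 25.3 at day 3, and 12.1, 12.8 and 10.7 at day 21. Among the genes with counts at day 0 it had the largest fold change of the 10 at both later days, 28.5-fold at day 3 (log2 fold change 4.84 ± 0.18, edgeR adjusted p = 1.50e-07) and 13.6-fold at day 21 (3.77 ± 0.18, edgeR adjusted p = 1.56e-06). It fell between the later days (-1.07 ± 0.14, edgeR adjusted p = 0.000793). An antisense gene, Gm26902, overlaps 11.5% of its exon bases and had 248 counts in all libraries together. Without knowing whether counting used strand, their reads cannot be told apart there.

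**Figure D4:**
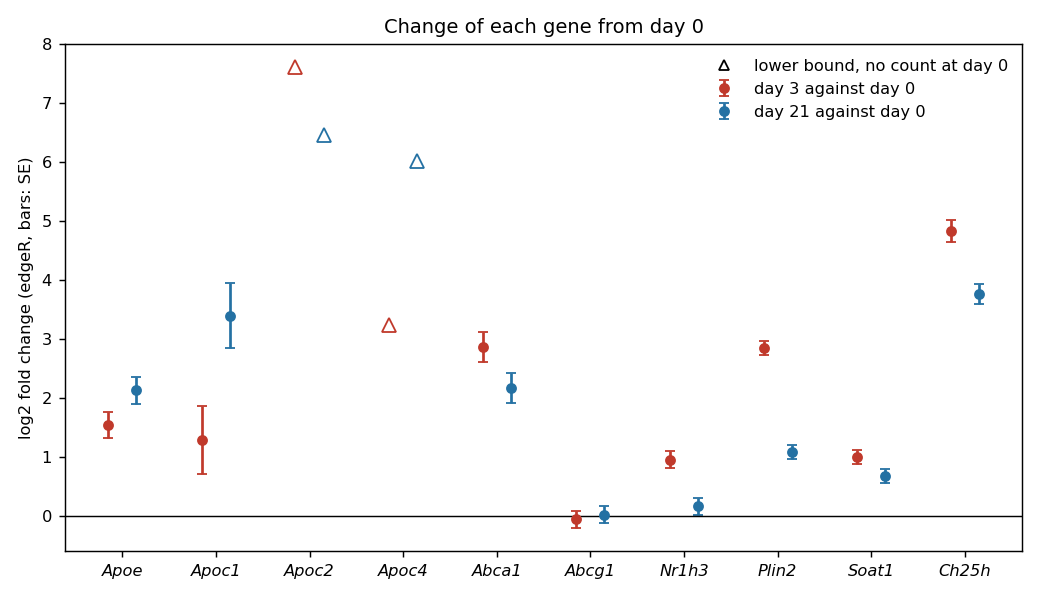
Log2 fold change of the 10 genes from edgeR with its SE, at day 3 and day 21 against day 0. Open triangles (lower bounds in the key) set Apoc2 and Apoc4, which had no counts at day 0, against a floor of 3 counts. Abcg1 stays close to 0 in both comparisons, and Ch25h has the largest change among genes with counts at day 0.

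Levels between genes can only be set side by side per length, and the length behind the deposited FPKM does not always match the annotation. For Apoe it is 5592 bases, longer than its locus of 3058 bases. Changes of one gene between libraries are not touched by this. With FPKM recomputed on GENCODE M21 exon length instead, Apoe stood at 530, 1615 and 2547 at days 0, 3 and 21, and it was the highest of the 10 on both scales at every day. At day 0 Abcg1 and then Plin2 followed on both scales (9.28 ± 0.404 and 5.78 ± 0.489 on M21 length). At day 3 Plin2 came second (43.3 ± 0.960) and was followed by Abca1 and Ch25h, which did not differ beyond their spread (24.2 ± 0.395 and 23.0 ± 1.38). Apoc1 came second at day 21 (17.9 ± 13.6), with a spread that covers Abca1 at 15.6 ± 5.38, Plin2 at 13.4 ± 1.92 and Ch25h at 11.5 ± 1.05. Without day 21 replicate 2 Apoc1 stood at 10.1, below Abca1 at 18.6, Plin2 at 12.3, Abcg1 at 11.2 and Ch25h at 11.1.

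Other genes of the pathway were read from lists of known members. Over all genes tested, 24.8% were called higher and 19.5% lower at day 3, and 17.9% and 11.3% at day 21. Without day 21 replicate 2, calls over all genes rose as well, from 1864 to 3748 lower at day 21 against day 0. List counts near these shares, or rising with them, are not a result about the list. Of 21 genes of liver X receptor partners and targets, 20 were tested: 6 were higher and 5 lower at day 3 (median log2 fold change 0.073), and 6 were higher and 4 lower at day 21 (median -0.19, or 8 higher and 9 lower without day 21 replicate 2). Lpl, the lipase that Apoc2 activates, had means of 0.619 ± 0.0583 FPKM at day 0, 4.39 ± 0.214 at day 3 and 11.2 ± 2.38 at day 21. It rose by 2.78 on the log2 scale at day 3 and by 4.05 at day 21 (edgeR adjusted p = 1.59e-06 and 8.35e-07). Mlxipl, a glucose-responsive transcription factor gene, rose at both days (1.81 and 1.90, edgeR adjusted p = 3.21e-05 and 6.62e-05). Abcg4, a brain relative of Abcg1, fell from 11.0 ± 0.526 FPKM to 5.08 ± 0.415 and 6.69 ± 0.738 (-1.17 and -0.84 on the log2 scale, edgeR adjusted p = 8.44e-05 and 0.00139). Ncoa1, a nuclear receptor coactivator gene, was lower at day 3 and did not pass at day 21 (-0.66 and -0.51, edgeR adjusted p = 0.0378 and 0.118). Fasn, fatty acid synthase, was lower at both days (-0.29 and -0.68, edgeR adjusted p = 0.0461 and 0.00139).

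Nr1h2, which encodes the other liver X receptor, and the targets Mylip, Lpcat3, Srebf1, Arl4c and Scd2 fall outside the rule for named genes and were picked after their values were seen. Nr1h2 had 9.26 ± 0.523, 10.4 ± 0.259 and 9.15 ± 2.08 FPKM and passed at neither day against day 0 (edgeR adjusted p = 0.558 and 0.495). Mylip, which encodes a ubiquitin ligase, rose at both days (1.60 and 1.23, edgeR adjusted p = 2.51e-05 and 0.000322). Lpcat3, a phospholipid-remodelling enzyme, rose by 1.27 at day 3 and by 0.31 at day 21 (edgeR adjusted p = 8.92e-06 and 0.0400). Srebf1, a lipogenic transcription factor gene, passed at day 21 but not at day 3 (0.44 and 0.31, edgeR adjusted p = 0.0283 and 0.0739). Arl4c, a small GTPase gene, passed at neither day (-0.56 and -0.29, edgeR adjusted p = 0.0762 and 0.383), and Scd2, a fatty acid desaturase gene, was lower at both (-0.49 and -0.64, edgeR adjusted p = 0.0107 and 0.00494).

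Among 14 other apolipoprotein and related genes, 9 were tested, with 3 higher and 1 lower at each later day (medians 0.68 and 0.58). Apod, a lipocalin that binds small lipids, went from 154 ± 18.6 FPKM to 631 ± 18.3 at day 3 and 252 ± 53.3 at day 21 (1.98 and 0.58 on the log2 scale, edgeR adjusted p = 8.35e-06 and 0.0166). Apobr, a receptor for apolipoprotein B particles on phagocytes, rose by 2.70 at day 3 and by 1.86 at day 21 (edgeR adjusted p = 1.28e-05 and 0.000330). Clu, which encodes clusterin or apolipoprotein J, was higher at both days (0.78 and 0.70, edgeR adjusted p = 0.000355 and 0.00153), and Apol8 was lower at both days (-1.51 and -0.59, edgeR adjusted p = 0.000152 and 0.0323). Apob and Apoc3, apolipoproteins of liver and gut, were too low to test.

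Of 18 genes for lipoprotein remodelling and efflux, 17 were tested, with 9 higher and 3 lower at day 3 (median 0.37) and 6 higher and 3 lower at day 21 (median 0.074). Besides Lpl and Abcg4 these included other ABC transporter genes. Abca9 was higher at both days (1.67 and 1.03, edgeR adjusted p = 0.00265 and 0.0405), as was Abca8a (1.08 and 1.14, edgeR adjusted p = 0.000699 and 0.00118). Abca2 was lower at both days (-0.49 and -0.64, edgeR adjusted p = 0.0376 and 0.0188), and Abca5 passed at day 3 but not at day 21 (-0.81 and -0.16, edgeR adjusted p = 0.0282 and 0.684).

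All 22 uptake receptor genes were tested, with 10 higher and 3 lower at day 3 (median 0.65) and 8 higher and 3 lower at day 21 (median 0.20, or 12 and 3 without day 21 replicate 2). Msr1, a scavenger receptor of macrophages, went from 0.0540 ± 0.0112 FPKM to 7.96 ± 0.249 at day 3 and 1.58 ± 0.119 at day 21 (7.15 and 4.74 on the log2 scale, edgeR adjusted p = 5.12e-08 and 8.28e-07). Cd36, another scavenger receptor, rose by 5.52 at day 3 and by 2.92 at day 21 against day 0 (edgeR adjusted p = 1.65e-07 and 1.95e-05). Trem2, a lipid-sensing receptor of microglia and macrophages, had 1.54 ± 0.114, 12.7 ± 0.874 and 19.9 ± 7.49 FPKM at days 0, 3 and 21, and was higher at both later days than at day 0 (2.99 and 3.56, edgeR adjusted p = 9.91e-06 and 1.12e-05). The sorting receptor Sorl1 was lower at both days (-0.98 and -0.72, edgeR adjusted p = 0.00681 and 0.0414), as was Sort1 (-0.82 and -0.63, edgeR adjusted p = 0.00259 and 0.0161). Between day 3 and day 21 no gene of this list was higher and 12 were lower (median -0.65), or 5 and 13 without day 21 replicate 2. Over all genes, 11.7% were called higher and 16.1% lower in that comparison.

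Of 26 lipid droplet genes besides Plin2 and Soat1, 23 were tested, with 8 higher and 6 lower at day 3 (median 0.098) and 4 higher and 2 lower at day 21 (median -0.092, or 4 and 6 without day 21 replicate 2). Plin4, another droplet coat gene, had 0.851 ± 0.102, 9.67 ± 0.271 and 1.88 ± 0.521 FPKM (3.45 and 1.02 on the log2 scale against day 0, edgeR adjusted p = 2.93e-06 and 0.00651). Hilpda, an inhibitor of droplet lipolysis, was higher at day 3 and did not pass at day 21 (1.52 and 0.15, edgeR adjusted p = 0.00134 and 0.719). Fabp4, a fatty acid binding protein, was higher at both days (2.63 and 3.03, edgeR adjusted p = 0.00159 and 0.00149). Its day 21 mean of 1.28 FPKM came to 0.847 without day 21 replicate 2, against 0.909 at day 3. Cideb and Acsl1 were lower at day 3 (-0.89 and -0.66, edgeR adjusted p = 0.0159 and 0.0393) and did not pass at day 21 (-0.30 and -0.39, edgeR adjusted p = 0.384 and 0.224). Fitm2 was lower at both days (-0.66 and -0.89, edgeR adjusted p = 0.00214 and 0.000839), as was Acsl3 (-0.52 and -0.38, edgeR adjusted p = 0.00383 and 0.0269).

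Of 15 oxysterol genes besides Ch25h, 14 were tested, with 3 higher and 5 lower at day 3 (median -0.067) and 3 and 3 at day 21 (median -0.082, or 3 and 7 without day 21 replicate 2). Gpr183, the receptor for an oxysterol made from the product of Ch25h, had 0.490 ± 0.165, 1.92 ± 0.493 and 2.95 ± 0.136 FPKM and rose at both days (1.90 and 2.44, edgeR adjusted p = 0.000378 and 0.000199). Hsd3b7, an enzyme that breaks that ligand down, rose at both days (1.55 and 0.63, edgeR adjusted p = 4.21e-05 and 0.0145). Osbpl8, an oxysterol-binding protein gene, passed at day 21 but not at day 3 (0.70 and 0.15, edgeR adjusted p = 0.0288 and 0.578). Sult2b1, a sterol sulfotransferase, was lower at day 3 and did not pass at day 21 (-0.98 and -0.47, edgeR adjusted p = 0.0186 and 0.230). Insig1, which holds back sterol synthesis when sterols are plentiful, fell from 42.5 ± 4.74 FPKM to 21.7 ± 0.829 and 22.2 ± 0.734 (-1.02 and -1.06, edgeR adjusted p = 4.74e-05 and 0.000101), and Srebf2, the activator of sterol synthesis genes, was lower at day 21 and did not pass at day 3 (-0.88 and -0.41, edgeR adjusted p = 0.00405 and 0.0686).

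All 21 genes of the cholesterol synthesis list, which includes the transfer protein gene Stard4, were tested, and none was higher at either day against day 0. At day 3, 11 were lower (median -0.32, or 14 lower and 1 higher without day 21 replicate 2), and at day 21, 15 were lower (median -0.78). Against day 3, day 21 had 8 lower and none higher, or 14 lower without day 21 replicate 2. In that comparison 16.1% of all genes were called lower. Stard4, a cholesterol transfer protein, had 5.77 ± 0.868, 3.57 ± 0.0845 and 3.38 ± 0.689 FPKM at days 0, 3 and 21 and was lower at both later days (-0.74 and -0.89, edgeR adjusted p = 0.00649 and 0.00471).

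The other nuclear receptor genes of lipid metabolism, 11 in all, had 4 higher and 2 lower at day 3 (median 0.33) and 1 higher and none lower at day 21 (median 0.065, or 3 and 1 without day 21 replicate 2). At day 3 the immediate-early genes Nr4a1 and Nr4a2 were higher (1.48 and 1.33, edgeR adjusted p = 1.50e-05 and 0.00365), and the mitochondrial regulators Ppargc1a and Esrra were lower (-1.25 and -0.70, edgeR adjusted p = 0.00217 and 0.0132). None of these 4 passed at day 21 (edgeR adjusted p = 0.189 to 0.594).

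**Figure D5:**
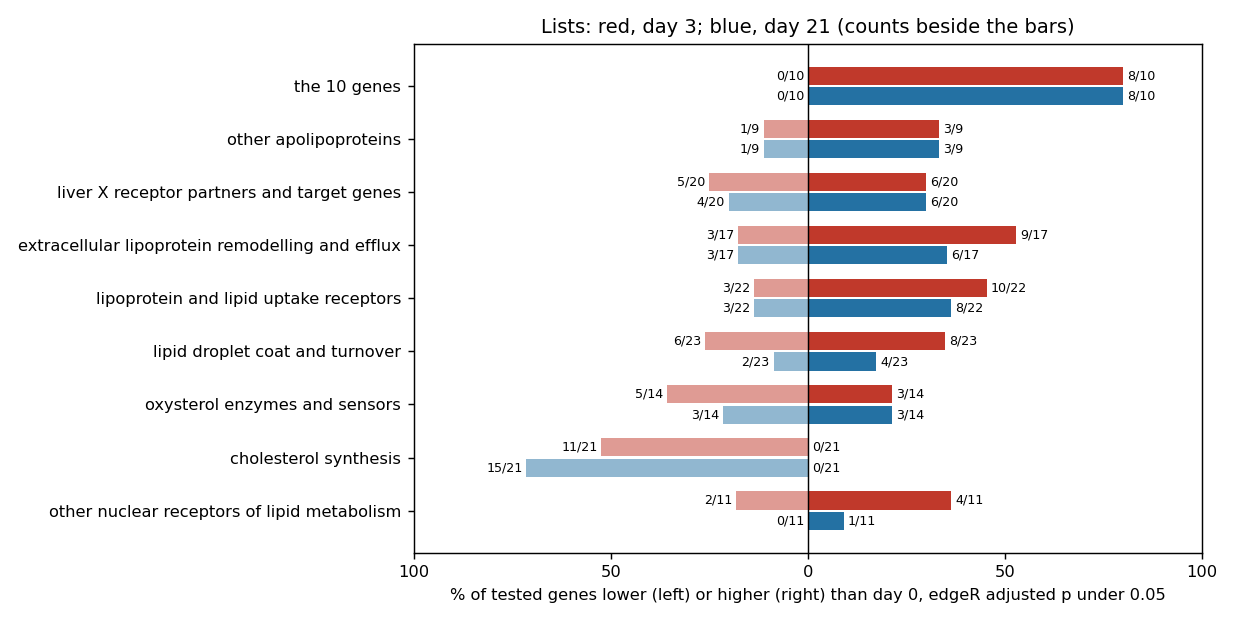
Percentage of tested genes of each list called lower (left) or higher (right) against day 0, at day 3 and day 21, with counts beside the bars (red, day 3; blue, day 21). Cholesterol synthesis genes have no call higher at either day. Over all genes tested, 24.8% were called higher and 19.5% lower at day 3, and 17.9% and 11.3% at day 21.

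Markers of several cell types moved with these genes, and their part in the results was not tested. Over all genes, 24.8% were called higher and 19.5% lower at day 3, and 17.9% and 11.3% at day 21. The highest day 21 sum of every marker list was that of replicate 2. All 15 monocyte and macrophage markers were higher at both days, and their summed FPKM ranged over 55.0 to 60.7 at day 0, 1203 to 1235 at day 3 and 634 to 898 at day 21. Their sum was highest at day 3, as were Plin2, Abca1 and Ch25h, while Apoe, Apoc1 and Apoc4 had their highest means at day 21. Of 10 homeostatic microglia markers, 8 and 7 were higher and none lower, with sums of 97.3 to 116, 324 to 355 and 304 to 367. Of 10 astrocyte markers, 4 were higher and 3 lower at day 3 and 2 higher and none lower at day 21, or 3 higher and 2 lower without day 21 replicate 2. Their sums were 1348 to 1387, 2743 to 2788 and 2416 to 2741, and Gfap, the astrocyte filament gene, gave 539 to 562, 2003 to 2019 and 1548 to 1934 of these. The other 9 markers summed to 791 to 830, 740 to 774 and 807 to 871.

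All 10 fibroblast markers were higher at day 3 and 9 at day 21, with sums of 47.7 to 49.8, 637 to 641 and 314 to 374. Schwann cell markers were higher for 9 and 8 of 10, with sums of 217 to 264, 730 to 747 and 351 to 424. Neuron markers were lower for 9 and 7 of 10, or 10 and 9 without day 21 replicate 2. Their sums were 2710 to 2792, 1414 to 1435 and 1781 to 2117, so the labelled tissue carried its defining markers at every day. Oligodendrocyte markers were lower for 7 and 2 of 10, and 1 and none were higher; without day 21 replicate 2 the day 21 counts were 7 lower and 1 higher. Liver is the main source of the Apoc proteins in blood. Of 12 hepatocyte markers 11 were under 1 FPKM in every group, and the sum was 0.997 to 1.34, 4.13 to 4.32 and 1.28 to 3.43 (4 tested, 3 and 1 higher). Adipocytes also carry Plin and Fabp genes, and their 10 markers summed to 3.52 to 3.77, 5.87 to 6.24 and 4.57 to 9.70, with Lep, the gene of leptin, at 0 counts in every library (5 tested, 2 and 3 higher).

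The genes most like Apoe, Plin2 and Ch25h were found by the root mean square difference of centred log2 CPM over the 9 libraries, among 7857 genes of enough expression. Apoe was followed most closely by Rtp4 (0.18), Ngp (0.22) and B2m (0.22). B2m, the light chain of MHC class I, went from a mean of 136 to 424 and 640 FPKM. Plin2 was followed by Tpm4, Tgm2 and Anxa2, all at 0.12, and Anxa2 went from 15.9 to 113 and 37.1 FPKM. The genes nearest to Ch25h were the collagen genes Col3a1 (0.18) and Col1a1 (0.24) and the complement receptor gene C3ar1 (0.26), with Col3a1 at 2.03, 62.9 and 28.2 FPKM. These likenesses are descriptions of the same libraries and share their depth and scaling.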

How the data were processed

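RNA-seq of 9 spinal cord libraries was re-analysed from 1 table. Per the labels' protocols, poly-A RNA was made into paired-end TruSeq libraries. HISAT2 and StringTie are named, with no version, in the submitters' processing notes, as is GRCh38, a human build, for these mouse samples. The loci in the table are on mouse build GRCm38: of 34267 gene IDs also in GENCODE M21, 27699 have the same chromosome, start and end. The sources used here name neither the annotation nor the program that counted reads, nor its use of strand. The deposited counts are integers for each gene without scaling, per the file headers. The deposited FPKM values are those counts per gene length and library total, per the file headers and the values, and the gene length behind them is longer than the locus for 5.39% of 20232 genes with counts.

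Counts were tested with edgeR 4.0.16 in R 4.3.3 (robust quasi-likelihood, TMM scaling, its expression filter, 6 residual degrees of freedom, coefficient of variation 0.205). All 9 libraries entered 1 fit, with Benjamini-Hochberg adjustment over 16494 genes, two-sided, called at 0.05. SE is the log2 fold change divided by the root of F. Values are mean ± SD over 3 libraries. A group without counts was given a floor of 3 counts in all, for counting error only. The self-test drew simulated counts with known changes. The members and lists were chosen with earlier results of these data known. Beyond the members and genes within 100 kb of Apoe, up to 2 called genes per list, direction and day were named, by the largest change at 1 FPKM or more, with the 3 nearest profiles of 3 members; a few genes so chosen are not reported here. Alternatives were DESeq2 1.42.0, limma 3.58.1 on log2 FPKM, other scalings and filters, a replicate block and each library left out. M21 exon length for the ratios, the levels without day 21 replicate 2, the astrocyte sum without Gfap and the member counts without Apoc2 and Apoc4 were added after seeing the data.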

Additional observations from a re-analysis of the deposited data

Results flagged for a closer look

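For 5 of the 10 genes the changes at day 3 and day 21 differed when day 21 was tested directly against day 3 with edgeR. Over all genes tested, 11.7% were called higher and 16.1% lower in that comparison. Each value is a log2 fold change of day 21 against day 3. Apoc1 had 2.11 and Apoc4 had 2.77, both higher in 3 of 3 day 21 libraries than in any day 3 library, but the call of Apoc1 was lost without day 3 replicate 1 or 2 and that of Apoc4 without any one day 3 library. Nr1h3 had -0.79, Plin2 had -1.77 and Ch25h had -1.07, all lower in 3 of 3 day 21 libraries than in any day 3 library. The calls of those last 3 genes were kept in every setting tried.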

How the results depend on the processing

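Over 659 alternative values of the member fold changes, 619 kept their direction and side of the threshold, 24 passed newly, 9 no longer passed and 7 changed sign without passing either way. The 7 were Abcg1 at day 21 against day 0 with no count filter (-0.044) and without day 0 replicate 1, day 21 replicate 1 or day 21 replicate 3, Abcg1 at day 21 against day 3 without day 21 replicate 1, and Nr1h3 at day 21 against day 0 with sample weights (-0.016) and quantile scaling (-0.052). With 1 library left out, Abcg1 ranged from -0.106 to 0.159 against day 0 and from -0.0447 to 0.220 against day 3. The cause was not tested. For day 21 against day 3, members lower were 3 in the reported fit, 5 with DESeq2, 5 with limma on log2(FPKM + 1) and on log2(FPKM + 5), and 6 with sample weights, and members higher were 2 and, with sample weights, 4. Leaving out 1 library gave 0 to 3 members higher and 3 to 6 lower, with 0, 0 and 1 higher without day 3 replicates 1, 2 and 3.

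Counts over all genes moved more. Genes lower at day 3 against day 0 were 3217, and 5239 with sample weights (2361 to 4891 with 1 library left out). Genes lower at day 21 against day 0 were 1864, and 801 in a fit of only those groups, 3956 with sample weights, 1152 and 1218 with limma at pseudocounts of 0.1 and 1 (1011 to 3748 with 1 library left out). For day 21 against day 3, 1928 were higher and 2657 lower, and 4441 and 4853 with sample weights (1006 to 3941 and 1887 to 4305 with 1 library left out). Leaving out day 21 replicate 2 gave the highest count in each range. Leaving out day 0 replicate 2 or 3 gave 1072 and 1011 genes lower at day 21 against day 0, and leaving out day 3 replicate 1, 2 or 3 gave 1006, 1066 and 1038 higher at day 21 against day 3.

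Libraries of the same number did not deviate together (r from -0.146 to 0.107). With 3 libraries a group, this check cannot exclude that the numbers pair them. With the replicate number as a block, 8 members were higher at each later day against day 0, and 2 higher and 3 lower at day 21 against day 3, with no call of a member changed. Genes lower at day 21 against day 0 came to 1318. Low counts limit Apoc4 at day 3, and 3 libraries a group limit every test.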
